A study of Arabidopsis thaliana with 5 samples.

Results

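The flavonoid pathway was followed through 10 genes in cotyledons of a ckg mutant line and of the wild type Col-0 of Arabidopsis thaliana. They comprised enzymes and regulators chosen by their loci: CHS (AT5G13930), CHI (AT3G55120), F3H (AT3G51240), TT7 (AT5G07990), FLS1 (AT5G08640), DFR (AT5G42800), LDOX (AT4G22880), UGT78D2 (AT5G17050), PAP1 (AT1G56650) and TT8 (AT4G09820). All 10 were on the array, with 13 probes, among 25433 genes with 34358 matched probes. F3H had 2 probes and TT7 had 3; the other genes had 1 each. Total RNA of 3 ckg and 2 Col-0 samples, biological replicates by the study's design text, carried the dye Cy3 on 1-colour Agilent arrays, 1 array per sample. All seedlings were 7 days old and grown in long days with 16 h of light and 8 h of dark. Cotyledons are the seed leaves. The labels write the mutant genotype as "cgr" and the line as ckg, give no allele, and name a single line; from outside knowledge it was taken to carry a lesion in AT5G50915, which encodes a transcription factor of the basic helix-loop-helix family.

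Flavonoids are phenolic compounds that plants make from phenylalanine by way of coumaroyl-CoA. Chalcone synthase (CHS) joins this precursor with malonyl-CoA, chalcone isomerase (CHI) closes the ring, and flavanone 3-hydroxylase (F3H) makes dihydroflavonols, on which the flavonoid 3'-hydroxylase TT7 adds a hydroxyl group. At the dihydroflavonols the pathway divides. Flavonol synthase 1 (FLS1) leads to flavonols, colourless compounds that absorb ultraviolet light, while dihydroflavonol reductase (DFR) and leucoanthocyanidin dioxygenase (LDOX) lead to anthocyanins, the red and purple pigments. UGT78D2 attaches glucose to products of both branches. PAP1, an R2R3-MYB factor, and TT8, a basic helix-loop-helix factor, belong to the MYB, helix-loop-helix and WD40 protein complexes that switch on the late, anthocyanin-side genes.

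On the 4 arrays other than that of ckg replicate 3, from 66.7% to 70.0% of the 43803 non-control spots were well above background, a flag of the scanner software. On ckg replicate 3 the share was 52.4%. Signals are given here as a percentage of the 75th percentile of the non-control spots on the same array. In that unit the lowest signal well above background was 0.591% to 0.801% on those 4 arrays and 7.05% on ckg replicate 3, so weakly expressed genes could not be measured there. This signal, called the limit or detection limit below, is not strict, because a spot can read above it and lack the flag. The gene EGL3 did so at 1.315% on Col-0 replicate 2, and AT1G03940 at 8.49% on ckg replicate 3. Folds given as at least a value rest on this limit. As far as the deposited records tell, each slide held 1 genotype, and the effects of slide and genotype therefore cannot be told apart. AT5G50915 was well above background on 0 of 3 ckg arrays and on 2 of 2 Col-0 arrays, and by its brightest probe the ckg level was at least 29.6-fold lower than that of Col-0. The number of arrays limits the precision of every value, and an exact permutation test on 3 against 2 arrays cannot give a p below 0.1.

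Among the early enzymes, CHS and F3H had lower signals on every ckg array than on either Col-0 array, whereas CHI and TT7 overlapped between the genotypes. CHS stood at 13.6%, 14.0% and 2.69% of the 75th percentile on ckg replicates 1, 2 and 3, against 40.1% and 51.6% on the Col-0 arrays. The ckg replicates 1 and 2 were nearly level, and replicate 3 lay far beneath them, at a signal that was not well above background on that array. The limma log2 difference, ckg minus Col-0, was -2.51 ± 0.78 (SE), with an unadjusted p of 0.0220 and an adjusted p of 0.206 over all 18123 genes tested. Without ckg replicate 3 the difference of CHS was -1.72 ± 0.15, a level 0.304 times that of Col-0, with a limma adjusted p of 0.0711. Over the alternatives that kept both Col-0 arrays, the limma adjusted p of CHS ran from 0.0711 to 0.483. CHS entered the test because both Col-0 arrays measured it, and 2 of 3 ckg arrays did.

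F3H was well above background on all 5 arrays with its brighter probe. That probe read 5.46%, 10.9% and 9.45% in ckg and 18.6% and 20.7% in Col-0. The ckg arrays varied about 2-fold among themselves, yet each stayed under both Col-0 arrays. The log2 difference of F3H was -1.25 ± 0.31, or a ckg level of 0.421 times the Col-0 level (95% interval of the log2 difference -2.04 to -0.45; unadjusted p 0.00960, limma adjusted p 0.165). The dimmer probe of F3H gave 3.18%, 3.08% and 1.63% in ckg and 5.44% and 7.57% in Col-0. Its log2 difference, from a fit with every probe as a feature, was -1.35 ± 0.35, with the ckg replicate 3 value not well above background. Both probes of the gene therefore had the same sign and a similar size.

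CHI, the isomerase between CHS and F3H, showed no such separation. Its signals were 23.5%, 32.4% and 41.1% in ckg and 27.3% and 29.4% in Col-0, so the ckg arrays lay on both sides of Col-0. The log2 difference was 0.16 ± 0.25 (95% interval -0.47 to 0.78, limma adjusted p 0.764), and it was -0.036 without ckg replicate 3. TT7 gave 24.6%, 15.3% and 17.1% in ckg against 16.6% and 16.1% in Col-0 with its brightest probe. Here ckg replicate 1 was the high array, and the others were near Col-0. The difference of TT7 was 0.19 ± 0.22 (95% interval -0.37 to 0.75, limma adjusted p 0.672), and -0.0097 without ckg replicate 1. The next probe of TT7 had a log2 difference of 0.03 ± 0.23, and the last was well above background on 1 of 5 arrays only. These intervals reach 0.78 for CHI and 0.75 for TT7 on the log2 scale, so equal levels in ckg and Col-0 are not shown.

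**Figure D1:**
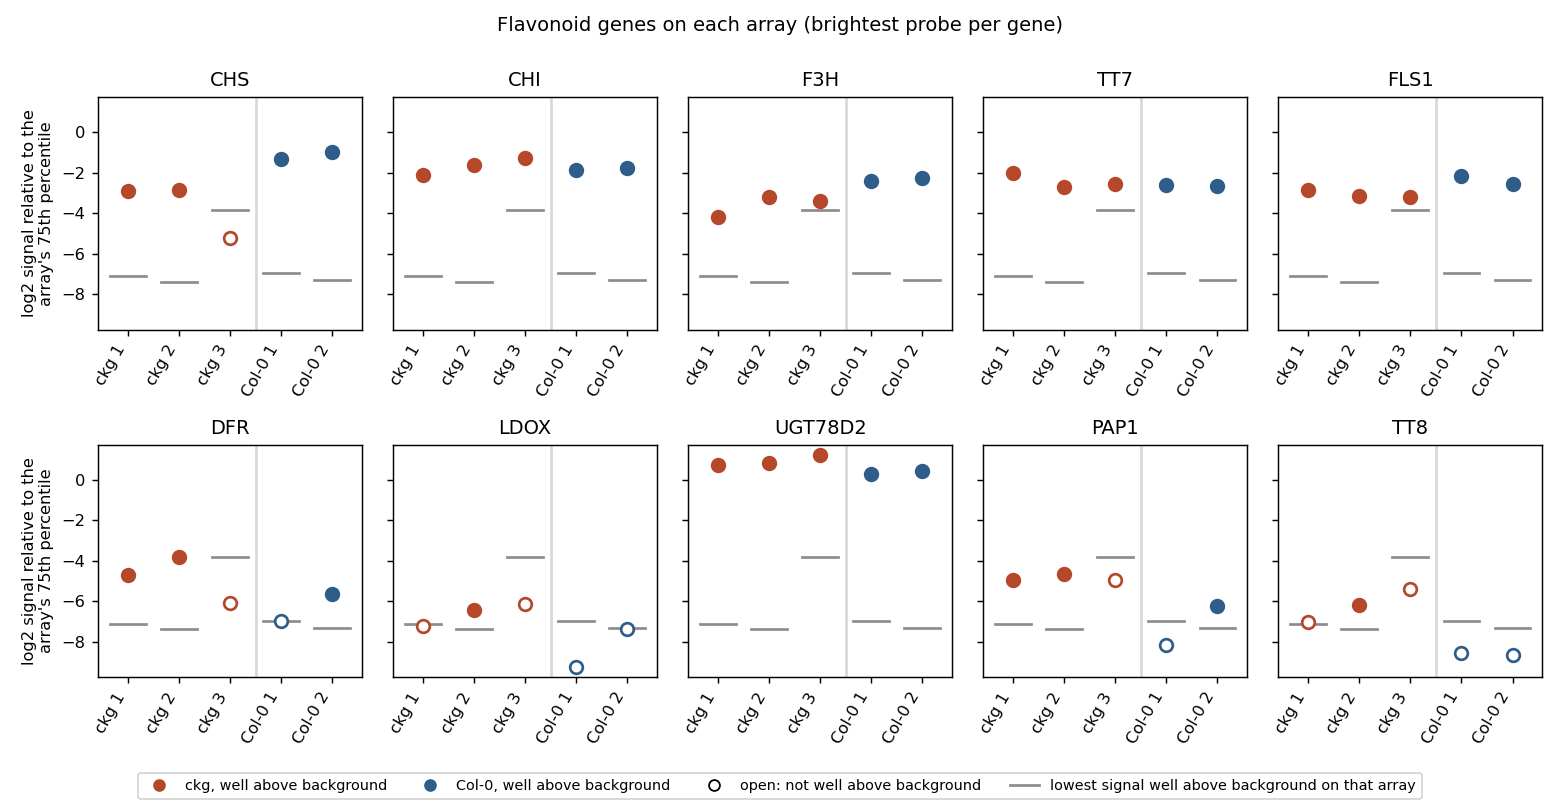
Signal of the 10 flavonoid genes on each array, as log2 relative to the array's 75th percentile (vertical axis), with ckg arrays left of Col-0 arrays; filled points were well above background, open points were not, and grey bars mark the lowest signal well above background on that array. CHS, F3H and FLS1 sit beneath Col-0 on all ckg arrays, UGT78D2 sits above, and the grey bar of ckg replicate 3 lies over every open point of that array.

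FLS1, the flavonol branch enzyme, was well above background on all 5 arrays. It read 13.7%, 11.4% and 10.8% in ckg and 22.6% and 17.3% in Col-0. The 3 ckg arrays were close to one another and all lay beneath both Col-0 arrays, which themselves differed by more than the ckg arrays did. The log2 difference was -0.73 ± 0.18, a ckg level of 0.601 times that of Col-0 (95% interval -1.18 to -0.29). This was the smallest unadjusted p among the members (0.00798, rank 917 among all genes tested), and the limma adjusted p was 0.157. The size of this difference depended on how signals were processed. FLS1 was at -0.35 ± 0.18 with normexp correction of raw median signals and at -0.50 ± 0.31 in the authors' deposited series table, and its unadjusted p was 0.109 at the first of these settings and 0.158 at the second. FLS1 was also at -0.54 without Col-0 replicate 1.

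The genes whose profile over the 5 arrays lay nearest to that of FLS1 were sought by the root mean square distance of log2 values centred per gene. They were 3xHMG-box1, a protein with HMG boxes that bind DNA (distance 0.023), HTA11, a histone H2A variant (0.066), UCC2 (0.067), PDIL2-2 (0.075) and MAN2 (0.076). Their own log2 differences ran from -0.76 to -0.63, near that of FLS1 by the way they were chosen. None of them is a flavonoid gene on the lists used here. Among the members, TT7 was nearest to FLS1 at a distance of 0.484, in place 11426 of 17897 genes, and CHS was farthest at 1.20. Likeness over 5 arrays of 2 genotypes is a weak description, and no test was attached to it.

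UGT78D2, the glucosyltransferase of both branches, differed in the opposite direction. Its signal was 168%, 180% and 234% of the 75th percentile in ckg and 121% and 135% in Col-0. All 3 ckg arrays exceeded both Col-0 arrays, replicate 3 by most. The log2 difference was 0.59 ± 0.18 (95% interval 0.14 to 1.03; unadjusted p 0.0196, limma adjusted p 0.202). Without ckg replicate 3 it was 0.44 ± 0.11. The related flavonol glycosyltransferase gene UGT78D1 had a log2 difference of -0.07 ± 0.15, and UGT78D3 was detected on no array by that flag.

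The anthocyanin branch was dim in both genotypes. DFR was well above background on 2 of 3 ckg arrays and on 1 of 2 Col-0 arrays, and LDOX on 1 of 3 ckg and 0 of 2 Col-0 arrays. Neither gene therefore met the requirement of being measured on every array of a genotype, and neither was tested on 5 arrays. DFR read 3.86%, 7.21% and 1.48% in ckg, the last not well above background, against 0.797% (not well above background) and 1.99% in Col-0. On ckg replicates 1 and 2 it thus exceeded both Col-0 arrays. The reading of ckg replicate 3 lay beneath 7.05%, the lowest signal well above background on that array, and can be placed in no order with the others. Without ckg replicate 3, DFR passed the filter through ckg alone, the genotype in which it is higher, so no test of it is given, and no exact fold, since 1 of the Col-0 readings was not measured.

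LDOX read 0.661%, 1.16% and 1.43% in ckg and 0.166% and 0.609% in Col-0, and only the second of these ckg values was well above background. That value of ckg replicate 2 exceeded the lowest signal well above background on both Col-0 arrays, 0.801% and 0.631%. Spots above those signals can lack the flag, so a lower level in Col-0 is not shown. With 1 measured array in ckg and 0 in Col-0, LDOX has no group difference here.

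Of the regulators, PAP1 was well above background on 2 of 3 ckg arrays and 1 of 2 Col-0 arrays. Its signals were 3.22%, 3.90% and 3.26% in ckg and 0.346% and 1.31% in Col-0. The readings of ckg replicate 3 and of Col-0 replicate 1 were not well above background. Both measured ckg values of PAP1 exceeded the measured value of Col-0 replicate 2 and the limit of 0.801% on Col-0 replicate 1, while ckg replicate 3 has no place in that order. PAP1 was not tested on 5 arrays, and without ckg replicate 3 it, too, passed the filter through ckg alone.

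TT8 was well above background on 1 of 3 ckg arrays and on 0 of 2 Col-0 arrays. It read 0.765%, 1.37% and 2.40% in ckg and 0.268% and 0.242% in Col-0. The value of ckg replicate 2, the measured one, exceeded the lowest signals well above background on both Col-0 arrays. As those are not strict limits, a lower level in Col-0 is not shown, and no group difference of TT8 is given. PAP2, also called MYB90, is a close relative of PAP1 with the same kind of role. It was well above background on 2 of 3 ckg arrays and 0 of 2 Col-0 arrays, with 2.95%, 5.04% and 1.56% in ckg against 0.179% and 0.131% in Col-0. On ckg replicates 1 and 2, which measured it, PAP2 was at least 5.42-fold higher than in Col-0, with the mean of their log2 signals set against that of the lowest signals well above background on the Col-0 arrays. When every array was raised to the detection limit of ckg replicate 3, an alternative added after seeing the data, the log2 differences of LDOX, PAP1 and TT8 were 0 and that of DFR was 0.01, so the readings of all 4 lie almost wholly under the limit of 1 of the 5 arrays.

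The branches can be set side by side only where both were measured. Relative to the Col-0 mean of the same gene, FLS1 stood at -0.53, -0.79 and -0.88 (log2) on ckg replicates 1, 2 and 3, and at 0.19 and -0.19 on the Col-0 arrays. Measured DFR values stood at 1.61 and 2.51 on ckg replicates 1 and 2 and at 0.66 on Col-0 replicate 2, relative to a Col-0 mean that includes an unmeasured reading. On those 3 arrays, DFR was higher and FLS1 lower in ckg. The mean of the DFR and LDOX readings minus FLS1 gave a difference between ckg and Col-0 of 2.31 (log2), but 6 of its 10 anthocyanin-side readings were not well above background, and at the detection limit of ckg replicate 3 it was 0.74. No direction of the anthocyanin branch as a whole is drawn from it.

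**Figure D2:**
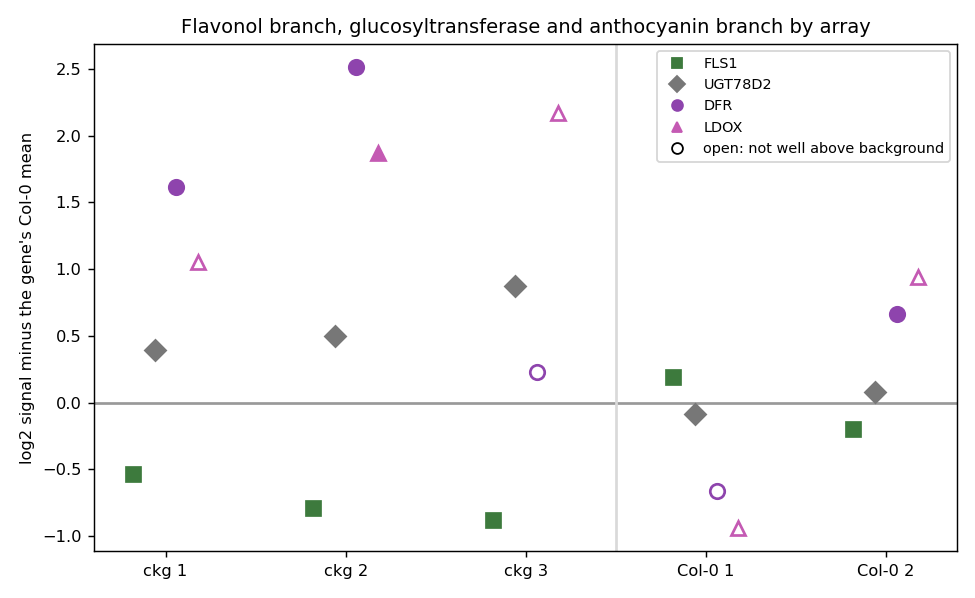
Log2 signal of FLS1, UGT78D2, DFR and LDOX on each array minus the gene's own Col-0 mean (vertical axis), with ckg arrays left of Col-0 arrays and open points not well above background. On ckg replicates 1 and 2 FLS1 lies beneath 0 and DFR at 1.61 and 2.51, while all LDOX points except that of ckg replicate 2 are open.

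In all, 6 of the 10 members were tested and 0 passed a limma adjusted p of 0.05, as for 0 of all 18123 genes tested (0% called). Other settings called up to 128 genes at that threshold, none of them a member. At an unadjusted p under 0.05 were 4 of 6, CHS, F3H and FLS1 lower and UGT78D2 higher in ckg, against 18.1% of all genes tested (9.81% lower and 8.3% higher). Leaving aside CHS, which passed the filter through Col-0, 3 of the 5 members measured on every array were under 0.05, against 17.4% of such genes. With either Col-0 array left out, 1 Col-0 array remained and the spread came from ckg alone, so no count is given. The count of 4 of 6 therefore rests on both Col-0 arrays. Without Col-0 replicate 1 the log2 differences of CHS, F3H, FLS1 and UGT78D2 were -2.69, -1.32, -0.54 and 0.50. Without Col-0 replicate 2 they were -2.32, -1.17, -0.93 and 0.67. Without ckg replicate 3 the same 4 of the 6 members tested on 5 arrays were under 0.05, against 23.1% of genes. DFR and PAP1 were not counted there because they passed the filter through ckg alone. Every ckg array lay beneath both Col-0 arrays for CHS, F3H and FLS1, a separation seen in 22.6% of genes, and above both for UGT78D2, seen in 19.5%. A fitted difference of at least 2-fold in the lower direction, as in CHS and F3H, was found in 1.01% of genes, and 0 tested members had one in the higher direction, found in 1.8%. The median log2 difference of the 6 tested members was -0.29, and that of all genes -0.0097.

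**Figure D3:**
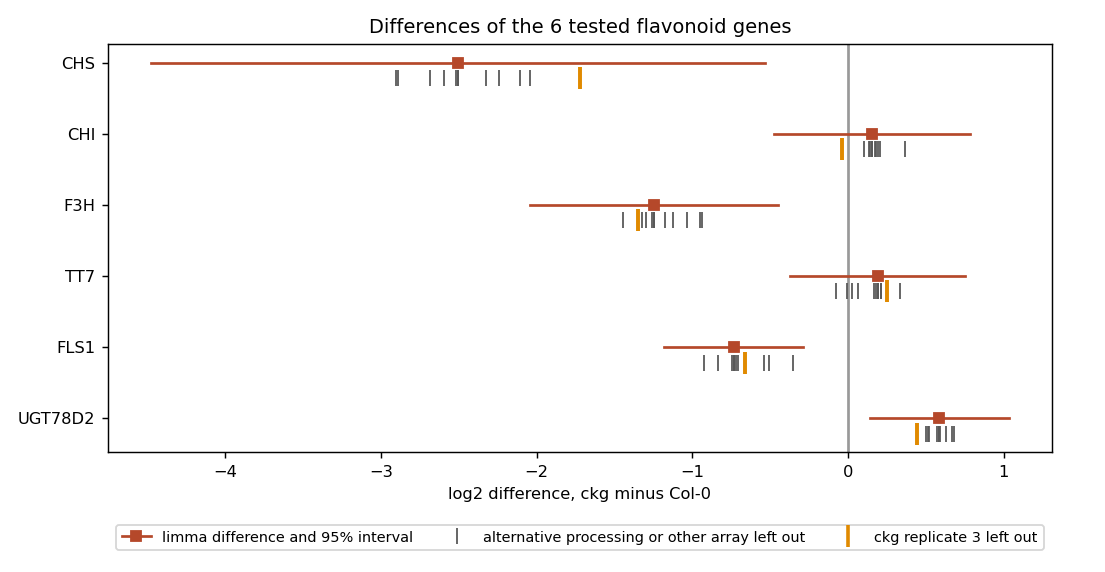
Log2 differences, ckg minus Col-0, of the 6 tested genes (squares) with 95% limma intervals (lines), and the same values under each alternative (ticks; orange where ckg replicate 3 was left out). CHS, F3H and FLS1 keep to the negative side and UGT78D2 to the positive side under every alternative, while ticks of CHI and TT7 lie on both sides of 0.

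The steps that feed the pathway went both ways. Of 9 genes of phenylpropanoid entry, all tested, 3 had an unadjusted p under 0.05 (33.3%, beside 18.1% of all genes tested). Limma called 0 of them after adjustment over all genes. PAL1, a phenylalanine ammonia-lyase, read 220%, 247% and 298% in ckg against 427% and 462% in Col-0, with a log2 difference of -0.81 ± 0.16 (limma adjusted p 0.132). 4CL3, a coumarate CoA ligase, was at -0.65 ± 0.15 and its relative 4CL2 at 0.36 ± 0.11. The list median was -0.0041. CHIL, a non-catalytic relative of CHI that raises flavonoid output, read 7.39%, 7.03% and 3.80% in ckg, the last not well above background, and 17.2% on both Col-0 arrays. Its log2 difference was -1.56 ± 0.32 (limma adjusted p 0.134), and -1.26 ± 0.09 without ckg replicate 3. Like CHS, CHIL and 4CL3 passed the filter on 5 arrays through Col-0, where they are higher. The flavonol regulators gave little to compare, since MYB11 and MYB12 were never well above background and MYB111 was on 2 of 3 ckg and 1 of 2 Col-0 arrays.

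Farther down the flavonol branch, 0 of 7 tested genes of flavonol synthase copies and decoration were at an unadjusted p under 0.05. The share of all genes tested was 18.1%. Of the 7, 6 had negative differences. RHM1, a rhamnose synthase, was at -0.30 ± 0.12, with 1 ckg value dropped as an outlier spot. OMT1, a methyltransferase, was at -0.40 ± 0.21, and at -0.57 ± 0.13 without ckg replicate 3. AT1G06000, on the same list, was at -0.45 ± 0.29, and at -0.73 ± 0.09 without that array. FLS4, a relative of FLS1, was at 0.22 ± 0.11. FLS4 was not well above background on ckg replicate 3, and without that array it was at 0.23. Among 8 genes of anthocyanin decoration and transport, 5 were tested and 1 was under 0.05 (20%). That gene, AT1G03940, which the gene table leaves without a symbol, was at 0.85 ± 0.22. Its highest reading, 8.49% on ckg replicate 3, was not well above background, and without that array AT1G03940 was at 0.65 ± 0.08. BGLU10 was at -0.73 ± 0.46 and scpl10 at 0.41 ± 0.27, and GSTF12, which takes part in moving anthocyanins to the vacuole, at 0.03 ± 0.49. Of the other activators, TTG1, the WD40 protein of the complex, had a log2 difference of -0.02 ± 0.13, and MYB113, MYB114, GL3 and EGL3 were never well above background.

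The 8 repressors of anthocyanin genes were all tested and 2 were at an unadjusted p under 0.05 (25%, beside 18.1% of all genes tested). MYBL2, a small MYB repressor of the complex, read 153%, 225% and 132% in ckg and 315% and 236% in Col-0, a log2 difference of -0.72 ± 0.27 (limma adjusted p 0.261). LBD38 was at -0.50 ± 0.11, and TRY, a small MYB that competes within such complexes, at 0.69 ± 0.29. Genes of light signalling upstream of CHS were all 12 well above background on all arrays, and 2 were under 0.05 (16.7%). HY5, a leucine zipper factor that activates CHS, read 95.7%, 109% and 180% in ckg and 66.2% and 70.8% in Col-0, so the gene stood higher on each ckg array than on either Col-0 array, with a log2 difference of 0.85 ± 0.29 (limma adjusted p 0.229). Its homolog HYH was at 0.85 ± 0.33 and the B-box gene STO at -0.33 ± 0.14. HY5 and CHS thus had differences of opposite sign in the same samples.

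Of the seed coat branch to proanthocyanidins, 6 of 8 genes were never well above background, among them BAN and TT2. TTG2 had a log2 difference of 0.44 ± 0.28 and AHA10 of -0.34 ± 0.35. Neither was well above background on ckg replicate 3, and without that array TTG2 was at 0.69 and AHA10 at -0.0011. In the lignin and sinapate branches, which draw on the same precursor, 4 of 10 tested genes (40%) were at an unadjusted p under 0.05. FAH1, a hydroxylase of that route, was at -0.52 ± 0.16, and the cinnamyl alcohol dehydrogenases ATCAD4 and CAD5 were at 0.48 ± 0.16 and 1.22 ± 0.44. The Col-0 arrays differed widely for CAD5, at 200% and 69.4%, against 285%, 265% and 275% in ckg. Over all these lists, 13 of 55 tested genes (23.6%) were under 0.05, beside 18.1% of all genes tested. Of the 13, 7 were lower and 6 higher, with CHIL and 4CL3 among them. Of the 45 genes well above background on all 5 arrays, 10 were under 0.05, beside 17.4% of all such genes.

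**Figure D4:**
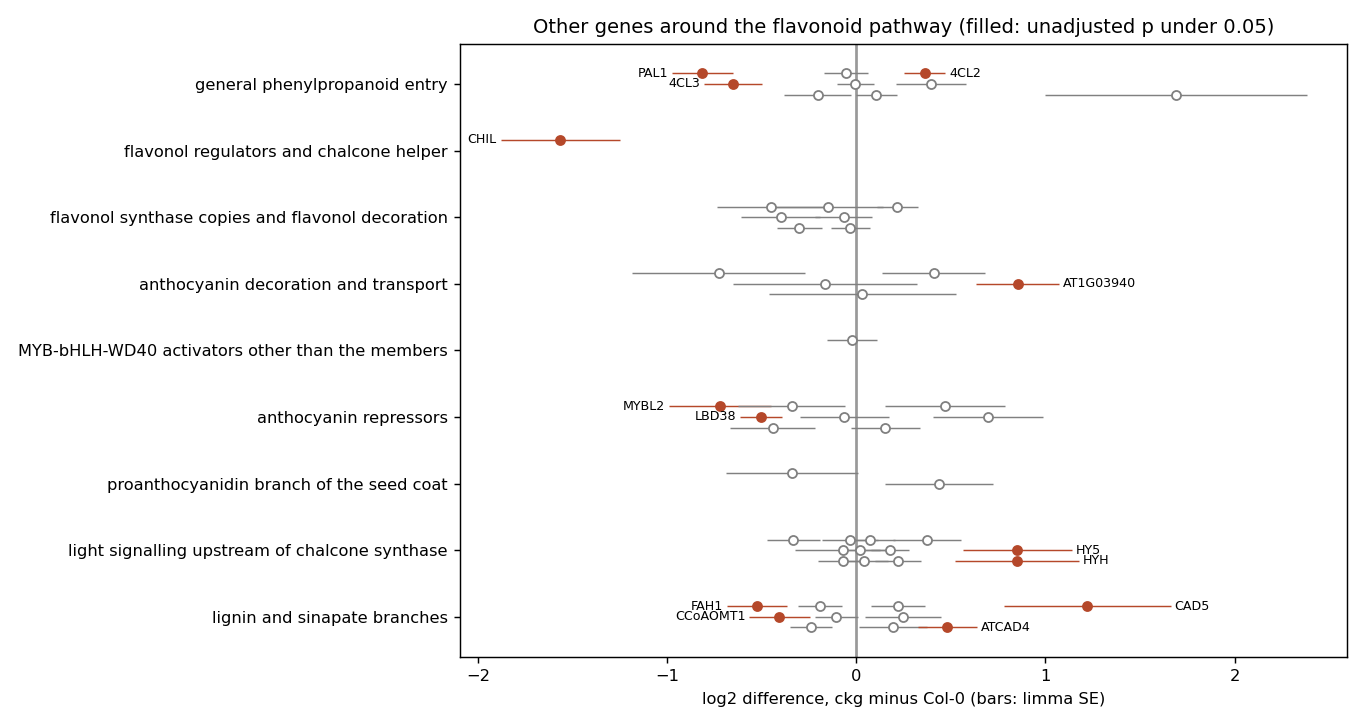
Log2 differences, ckg minus Col-0, of the 55 tested genes on 9 lists around the flavonoid pathway (points, with limma SE as bars); filled and named points had an unadjusted p under 0.05. Filled points lie on both sides of 0, with CHIL at -1.56 and CAD5 at 1.22 the outermost of them.

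Because flavonoids are made largely in the epidermis of leaves, markers of cell types were read beside these values. All 4 epidermis markers were well above background on all arrays. PDF1 had a log2 difference of -0.51 ± 0.16 (limma adjusted p 0.210), KCS10 of -0.40 ± 0.20 and KCS6 of -0.21 ± 0.25. ATML1 went the other way, at 0.20 ± 0.32. The summed signal of the 4 was 3665% to 5991% of the 75th percentile in ckg and 4975% to 5576% in Col-0. KCS6 made up most of this sum, at 2787% to 4666% in ckg and 3701% to 4301% in Col-0. All 5 mesophyll markers were detected on every array, with sums of 49780% to 59513% in ckg and 55177% to 58673% in Col-0. The guard cell markers KAT1 and FMA were detected on all arrays as well, at log2 differences of -0.05 ± 0.14 and -0.13 ± 0.10. The 3 markers of the shoot apical meristem were never well above background. Of 3 root markers, SHV2 and CASP2 were tested, at 0.29 ± 0.17 and 0.25 ± 0.19, and CASP1 was not. SHV2 and CASP2 were not well above background on ckg replicate 3, and without that array they were at 0.33 and 0.38. The part of these markers in the flavonoid values was not tested. In such samples fewer cells of a type and less RNA per cell cannot be told apart.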

How the data were processed

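Per the file headers, the authors read the scanned arrays with Agilent Feature Extraction 10.7.1.1. The deposited processed intensity is background-subtracted, with no scaling between arrays; raw median intensities and flags of 0 or 1 per spot were deposited too. In the series table that the authors deposited, values are on a log2 scale, with a normalisation that no header states. Their median was 8.41 on each array, ranks equalled those of raw median intensity (Spearman 1), and they were levels in which a higher value is a brighter spot; they served as an alternative.

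Here, processed intensities were divided by the 75th percentile of their array and put on a log2 scale. Outlier spots (35 to 197 per array) were left out, spots of a probe averaged, and probes matched by accession to loci of the TAIR10.1 gene table, which named 34358 of 43603 probes. No coordinates are given, because the array design names another build. The brightest probe stood for a gene, and was tested if all arrays of ckg, or all of Col-0, had it well above background (18123 genes). Ckg minus Col-0 was fitted with limma 3.58.1 (R 4.3.3, lmFit and eBayes, two-sided tests), and p-values were adjusted by Benjamini-Hochberg over all genes tested at a threshold of 0.05, with 3 residual degrees of freedom. The fit was tested on simulated data. Saturated spots numbered 0.

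The members and lists were chosen with earlier results of these data known. All members were named; of each other pathway list, the 3 tested genes with the smallest unadjusted p; the 5 nearest profiles to the member with the smallest p; PAP2; and AT5G50915. GSTF12, UGT78D1, AT1G06000, the cell type markers and genes named as undetected fall outside that rule and were chosen after their values were seen. Alternatives changed background correction, scaling, filter, outlier spots, probe choice, variance model, replicate block, threshold and detection floor, used the series table, or left out each array.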

Additional observations from a re-analysis of the deposited data

How the results depend on the processing

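Directions of CHS, F3H and FLS1 (negative) and of UGT78D2 (positive) held in 20 of 20 alternatives each, with ranges of -2.91 to -1.72, -1.45 to -0.94, -0.93 to -0.35 and 0.44 to 0.68. The 20 are not independent checks, since a change of filter, variance model or threshold alone could not move these differences. The replicate block gave each of these genes the same difference as leaving out ckg replicate 3. CHI turned to -0.036 with the replicate block and without ckg replicate 3, with probes chosen anew or kept, and ran to 0.37 with 1 array left out. TT7 was -0.075 with the mean of probes and -0.0097 to 0.33 with 1 array left out, lowest without ckg replicate 1. The count of members past the adjusted threshold was 0 in all 20 alternatives. Over all genes the count of 0 (3283 at an unadjusted p under 0.05 in limma) was 2 under normexp, 1 when arrays were scaled to their median, 3 with the series table, 3 with a variance trend, 3 with ckg replicate 3 left out on fixed genes, 130 at a threshold of 0.1 and 128 with the common floor, where values tied at the floor have no spread; leaving out 1 array gave 0 to 3. Members at an unadjusted p under 0.05 numbered 4 without ckg replicate 1 and 4 without ckg replicate 2. Without ckg replicate 3 they numbered 6, DFR and PAP1 among them, which passed the filter through ckg alone. No such count is given with a Col-0 array left out, where 1 Col-0 array remains. The contrast of anthocyanin minus flavonol branch (2.31), whose anthocyanin side is mostly readings not well above background, was 0.99 with normexp, 1.19 with quantile scaling, 0.97 with the series table and 0.74 with the common floor, and 1.32 to 3.30 with 1 array left out. The cause of these shifts was not tested, except that the floor by its construction removes differences of dim genes. The labels do not tie replicate numbers across genotypes, and samples of the same number did not deviate together (r = -0.0903 and -0.102 across genes). With the replicate block, in which ckg replicate 3 has no partner, 0 genes were called and 4 members were at an unadjusted p under 0.05, with CHS at -1.72, FLS1 at -0.66 and the branch contrast at 2.43. Signal over background limits DFR, LDOX, PAP1 and TT8, which ckg replicate 3 could not measure.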
